A study of Mus musculus with 12 samples.

Results

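The genes described here are Grm5, Grm2, Grm3, Grm4, Grm7 and Grm8, which encode metabotropic glutamate receptors. They were chosen by name and are 6 of the 57132 features of the count table. All 6 were among the 13902 features that passed the filter on low counts (a CPM, the count normalized to library size, of 0.5 or more in 3 or more libraries). Grm6, a further gene of the family, had 0 to 2 counts per library and was not tested. RNA came from the striatum of C57Bl/6 mice aged 10 months, 6 TAAR5-KO animals and 6 wild-type (WT) littermates. A coronal slice from bregma forward was cut and freed of cortex by dissection. TAAR5-KO mice lack trace amine-associated receptor 5, a receptor for volatile amines. Ribosomal RNA was depleted before directional libraries were sequenced. Each group held 3 males and 3 females, but no library is tied to an animal or a sex. Taar5 itself was counted against the labels, so genotypes are given as labels throughout. Libraries NK1 to NK6, labelled TAAR5-KO, had 2, 3, 2, 1, 2 and 6 counts of Taar5, in this order. Libraries NK7 to NK12, labelled WT, had 0, 1, 0, 0, 2 and 0 counts. The same order of libraries is kept wherever 6 values are given. Which part of the gene the knockout removes is not given in the sources used here.

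Metabotropic glutamate receptors are G protein-coupled receptors that act as dimers and bind glutamate in a large extracellular domain. Group I receptors, such as that of Grm5, couple to Gq and phospholipase C and sit mainly at the edge of the postsynaptic density. Group II (Grm2, Grm3) and group III receptors (Grm4, Grm6, Grm7, Grm8) couple to Gi/o, lower cyclic AMP and mostly restrain transmitter release. In the striatum they modulate the cortical and thalamic glutamate input to spiny projection neurons, and Grm5 is abundant in those neurons.

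Total counts per library ran from 11269915 to 34824450, but 64.3% to 88.1% of them lay on ribosomal RNA features. The counts outside ribosomal RNA were 1819907 to 6399188 per library. NK1, NK2 and NK3 had ribosomal shares of 86.6%, 87.1% and 88.1%, the highest among libraries labelled TAAR5-KO. The striatal neuron markers were present in every library except for a low level in NK11, where D1 spiny neuron markers summed to 19.5 CPM against 31.2 to 48.3 in the other 11. NK11 also held the highest sum of pituitary markers (56.0 CPM). Values below are CPM scaled with TMM factors (the trimmed mean of M-values, which adjusts for library composition).

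Because the 6 genes are paralogs, reads of 100 bases could in principle be assigned to the wrong member. The 60 coding bases in which the members are most alike within a single exon are shown for 4 of them to let their similarity be seen. They are written 5′ to 3′ on the coding strand, with the 40 bases shared by all 6 genes in capitals.
Grm5: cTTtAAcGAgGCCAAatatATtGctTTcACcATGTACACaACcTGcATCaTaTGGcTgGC
Grm4: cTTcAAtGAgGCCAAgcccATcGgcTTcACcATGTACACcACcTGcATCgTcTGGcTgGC
Grm7: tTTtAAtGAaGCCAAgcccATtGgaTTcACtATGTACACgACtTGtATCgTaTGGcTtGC
Grm8: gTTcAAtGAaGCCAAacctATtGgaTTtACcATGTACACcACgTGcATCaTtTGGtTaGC

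In GRCm39 the stretch lies at chr7:87724009-87724068 on the plus strand for Grm5. Those of group III lie at chr17:27653550-27653609 on the minus strand for Grm4, chr6:111335939-111335998 on the plus strand for Grm7, and chr6:27363127-27363186 on the minus strand for Grm8. Over the whole aligned coding sequence, Grm2 and Grm3 were identical at 66.07% of bases, and the 3 group III pairs at 68.26% to 69.25%. Grm5 was identical to the others at 51.18% to 53.21%, and pairs from groups II and III at 52.76% to 56.55%. No window of 100 bases of any member occurred in a transcript of another member. Windows shared with other genes made up 0% for Grm5 and Grm3, 0.495% for Grm4, 1.266% for Grm8, 4.91% for Grm2 and 8.443% for Grm7. The shared windows of Grm7, 501 of 5934, occurred in the long noncoding gene Gm20387 in the transcripts of GENCODE M39. The overlap in bases was taken from the exons of the count table, which follow another release (M35). In those exons Gm20387 lies on the opposite strand and overlaps 130 bases of Grm7. The long noncoding gene Gm28111 overlaps 470 bases of Grm2 exons, also on the opposite strand. Gm28111 had 0 or 1 counts and Gm20387 had 2 to 21 per library. The strand setting of the counting is not given in the sources used here, so reads from these overlaps cannot be assigned with certainty.

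None of the 6 receptors passed the test between the groups. At an adjusted p under 0.1 the likelihood ratio test of edgeR called 0 of 6 members, beside 229 of 13902 features (1.65%). The quasi-likelihood test of edgeR also called 0 of 6, beside 0.453% of all features. DESeq2 called 1 of 6, Grm5, beside 177 of 13902 features (1.27%). It gave no adjusted p for 7009 of the 13902, Grm2 among them. The share called among features with an adjusted p was therefore higher than 1.27%. An unadjusted p under 0.05 with the higher level in the libraries labelled TAAR5-KO was found for 3 members, Grm5, Grm7 and Grm4, and for 6.38% of all features. The log2 fold change was above 0 for 5 of the 6 members, with a median of 0.25, and for 48.9% of all features, whose median was -0.01. The groups overlapped for all 6 members, and they did not overlap for 1.01% of all features. Under scaling by library size alone the median of all features moved to -0.49 and all 6 members had log2 fold changes below 0, so every direction given here is relative to the bulk of genes. In whole tissue, fewer cells of a type and less RNA per cell cannot be told apart.

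**Figure D1:**
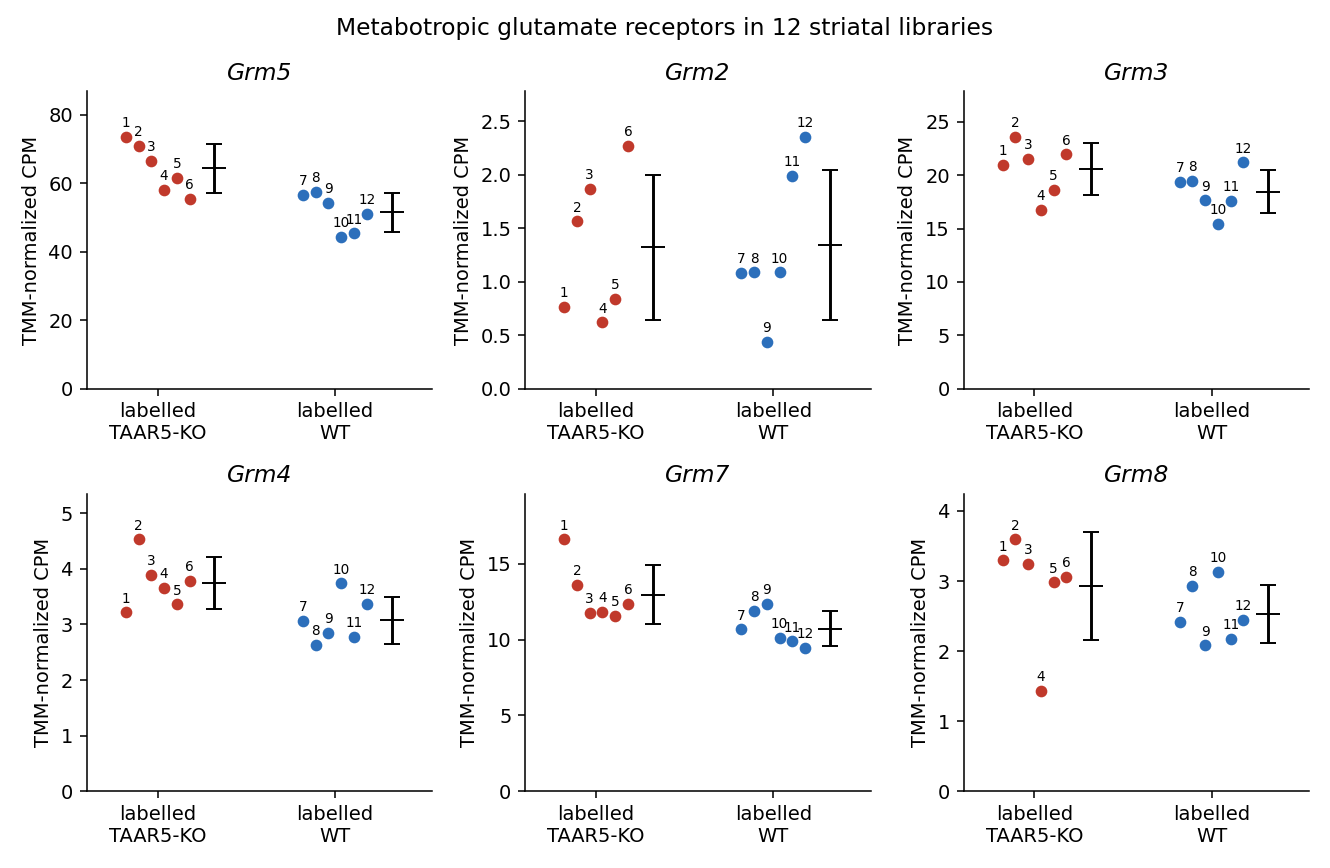
TMM-normalized CPM of the 6 receptor genes (y axes, from 0) in each of 12 libraries by labelled genotype. Points are libraries, numbered as NK1 to NK12, and bars are the mean ± SD of 6 libraries. The groups overlap in every panel, Grm5 is highest in NK1, and Grm2 spreads most.

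Grm5 (ENSMUSG00000049583.16) encodes mGlu5, the group I receptor of spiny neurons. It lies on chromosome 7 of GRCm39 from 87233376 to 87784115 on the plus strand, with 10247 bases of merged exons. From NK1 to NK6 it stood at 73.6, 71.1, 66.6, 58.2, 61.6 and 55.6 CPM, and from NK7 to NK12 at 56.6, 57.6, 54.2, 44.4, 45.3 and 50.99 CPM. Apart from NK6, which was below both NK7 and NK8, each library labelled TAAR5-KO lay above the highest library labelled WT. Means were 64.4 ± 7.19 and 51.5 ± 5.65 CPM (SD, n = 6 each), and rest on 368 to 2253 counts per library. The log2 fold change was 0.32 ± 0.10 (SE), or 1.25-fold with a 95% interval from 1.08 to 1.43. By the likelihood ratio test of edgeR the adjusted p was 0.110, just above the threshold of 0.1, and by the quasi-likelihood test it was 0.189. DESeq2 gave a log2 fold change of 0.32 and an adjusted p of 0.0504, adjusted over fewer features than in edgeR. Leaving out 1 library at a time moved the log2 fold change between 0.28 and 0.36. The adjusted p of the likelihood ratio test in edgeR was 0.0629 without NK4, 0.0707 without NK6 and 0.0925 without NK8, and with any other library left out it was above 0.1. It was 0.313 without NK11.

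**Figure D2:**
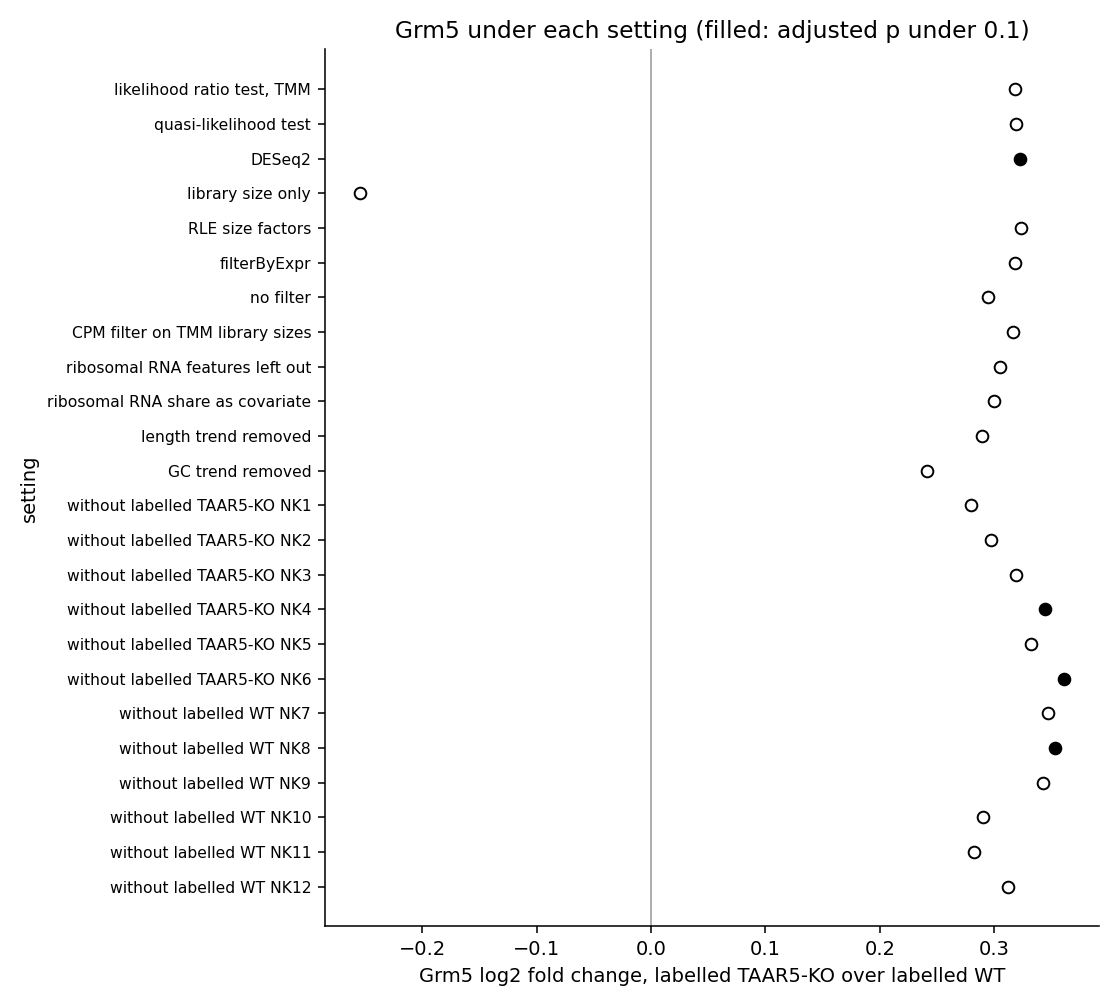
Log2 fold change of Grm5, labelled TAAR5-KO over labelled WT (x axis), under each setting (y axis), with filled points where the adjusted p was under 0.1. Values lie between 0.24 and 0.36 except with library size as the only scaling (-0.25), and 4 of 24 points are filled: DESeq2 and the fits without NK4, NK6 and NK8.

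Group II held the member that varied most between libraries. Grm2 (ENSMUSG00000023192.13) encodes mGlu2, a presynaptic receptor of cortical projection neurons among other cells. It lies on chromosome 9 from 106520294 to 106533281 on the minus strand, with 4894 bases of merged exons. Its levels from NK1 to NK6 were 0.766, 1.56, 1.87, 0.620, 0.840 and 2.27 CPM, and from NK7 to NK12 they were 1.08, 1.09, 0.438, 1.09, 1.99 and 2.35 CPM. High and low libraries occurred in both groups, and the highest value was 5.37 times the lowest. The counts behind these values were 4 to 104 per library. Between the groups the log2 fold change was -0.06 ± 0.35 (SE), with a 95% interval from -0.76 to 0.63 (likelihood ratio test of edgeR, adjusted p = 0.967). The interval includes changes larger than that of Grm5, so a difference of that size was not detectable for Grm2 at this depth and spread. Its biological coefficient of variation, the spread between libraries beyond counting error as a share of the mean, was 0.37, against a median of 0.15 for the 2500 features within 0.5 log2 CPM of it.

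Grm3 (ENSMUSG00000003974.7) encodes mGlu3, which astrocytes and neurons both use and which also binds N-acetylaspartylglutamate. It lies on chromosome 5 from 9535541 to 9775170 on the minus strand, with 3049 bases of merged exons. NK1 to NK6 held 21.0, 23.6, 21.5, 16.7, 18.7 and 22.0 CPM, and NK7 to NK12 held 19.4, 19.5, 17.6, 15.4, 17.6 and 21.2 CPM. The means were 20.6 ± 2.47 and 18.5 ± 2.00 CPM (SD, n = 6 each), so the ranges overlapped widely. A log2 fold change of 0.14 ± 0.10 (SE) had a 95% interval from -0.06 to 0.34 (likelihood ratio test of edgeR, adjusted p = 0.620).

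Group III had 3 small differences in the direction of Grm5. Grm7 (ENSMUSG00000056755.14) encodes mGlu7, a low-affinity receptor of the presynaptic active zone. It lies on chromosome 6 from 110622542 to 111544191 on the plus strand, with 5886 bases of merged exons. It had 16.6, 13.6, 11.8, 11.8, 11.6 and 12.4 CPM from NK1 to NK6, and 10.7, 11.9, 12.4, 10.1, 9.89 and 9.44 CPM from NK7 to NK12. NK1 and NK2 stood above the rest, and the other 4 of their group lay inside the range of the libraries labelled WT. Grm7 had a log2 fold change of 0.27 ± 0.11 (SE), or 1.21-fold with a 95% interval from 1.05 to 1.40 (likelihood ratio test of edgeR, adjusted p = 0.234). Without NK1 it was 0.20.

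Grm4 (ENSMUSG00000063239.18) encodes mGlu4, a presynaptic receptor of striatal output and input terminals. It lies on chromosome 17 from 27641361 to 27740377 on the minus strand, with 5977 bases of merged exons. Levels were 3.22, 4.53, 3.90, 3.66, 3.36 and 3.79 CPM from NK1 to NK6 and 3.06, 2.63, 2.85, 3.74, 2.77 and 3.37 CPM from NK7 to NK12. Each library of the first group lay above the median of the second (2.96 CPM), and NK10 and NK12 reached into its range. For Grm4 the log2 fold change was 0.28 ± 0.13 (SE), with a 95% interval from 0.04 to 0.53 (likelihood ratio test of edgeR, adjusted p = 0.325). Grm4 had the highest GC content of the members, 60.03% against 42.31% for Grm5. When each library's trend on GC content was removed, the log2 fold change of Grm4 was 0.42 with an adjusted p of 0.0721 and that of Grm5 was 0.24 with an adjusted p of 0.355 (likelihood ratio test of edgeR). In that fit 1 of 6 members and 0.626% of all features were called.

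Grm8 (ENSMUSG00000024211.16) encodes mGlu8, another presynaptic receptor. It lies on chromosome 6 from 27275118 to 28135177 on the minus strand, with 9898 bases of merged exons. NK1 to NK6 had 3.29, 3.60, 3.25, 1.43, 2.98 and 3.06 CPM, and NK7 to NK12 had 2.42, 2.93, 2.08, 3.14, 2.17 and 2.44 CPM. NK4 was the lowest of all 12, on 23 counts. For Grm8 the log2 fold change was 0.22 ± 0.18 (SE), with a 95% interval from -0.13 to 0.56 (likelihood ratio test of edgeR, adjusted p = 0.677). Without NK4 it was 0.35 with an adjusted p of 0.185.

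**Figure D3:**
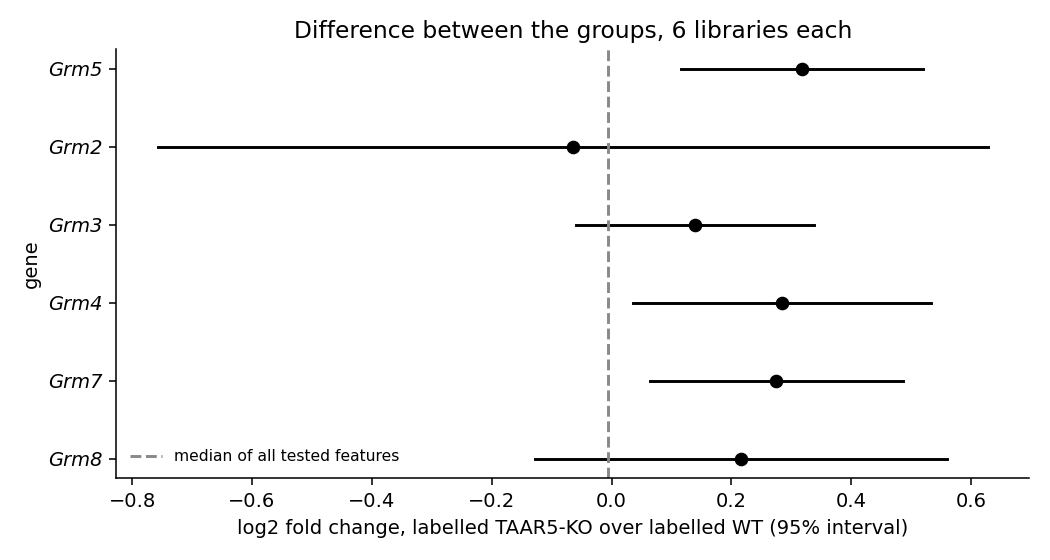
Log2 fold change, labelled TAAR5-KO over labelled WT, for the 6 receptor genes, with 95% intervals of the edgeR fit and the median of all tested features (dashed). Intervals of Grm5, Grm4 and Grm7 lie above 0, and that of Grm2 is the widest, from -0.76 to 0.63.

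The receptors' levels were compared with each other per length, as CPM per kb of merged exons. Grm3 stood at 6.40 ± 0.791 and Grm5 at 5.66 ± 0.892 CPM per kb (SD, n = 12). Grm7 followed at 2.01 ± 0.326, Grm4 at 0.570 ± 0.0915, Grm8 at 0.276 ± 0.0633 and Grm2 at 0.272 ± 0.134. Grm3 was above Grm5 in 10 of 12 libraries, with overlapping ranges and ratios of 0.958 to 1.40 within libraries. Grm8 was above Grm2 in 8 of 12, with overlapping ranges and ratios of 0.513 to 2.35. Neither order held in every library. The steps from Grm5 to Grm7 (2.81 times), Grm7 to Grm4 (3.53 times) and Grm4 to Grm8 (2.07 times) held in 12 of 12 libraries with no overlap. The order depends on the length used. The counted exons of Grm3 total 3049 bases, whereas its longest transcript in GENCODE M39 has 5540. For Grm2 these lengths are 4894 and 6912 bases. Reads were counted on merged exons only, so dividing by the longer transcript lowers both genes whatever their level. For the other members the longest transcript is shorter than the merged exons. The order on longest transcripts is therefore partly set by this mismatch. With the longest transcripts as lengths, Grm5 led at 6.80 ± 1.07 CPM per kb, before Grm3 at 3.52 ± 0.435, Grm7 at 2.81 ± 0.456, Grm4 at 0.717 ± 0.115, Grm8 at 0.569 ± 0.131 and Grm2 at 0.192 ± 0.0950 (SD, n = 12). Grm5 then lay above Grm3, and Grm7 above Grm4, in 12 of 12 libraries with no overlap. Grm3 was 1.25 times Grm7 and above it in 11 of 12 libraries, with overlapping ranges. Grm4 was 1.26 times Grm8 and above it in 10 of 12 libraries, and Grm8 was 2.96 times Grm2 and above it in 12 of 12, each with overlapping ranges. With merged exons, group II made up 44.0% ± 3.21 of the summed level of the 6 genes, Grm5 37.2% ± 2.46 and group III 18.8% ± 1.47 (SD, n = 12). With the longest transcripts these shares were 25.5% ± 2.57 for group II, 46.4% ± 2.30 for Grm5 and 28.1% ± 1.76 for group III (SD, n = 12). The lower share of group II follows in part from the same mismatch of lengths. With merged exons, the share of Grm5 was 38.3% ± 2.53 in the libraries labelled TAAR5-KO and 36.0% ± 1.94 in those labelled WT (SD, n = 6 each).

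**Figure D4:**
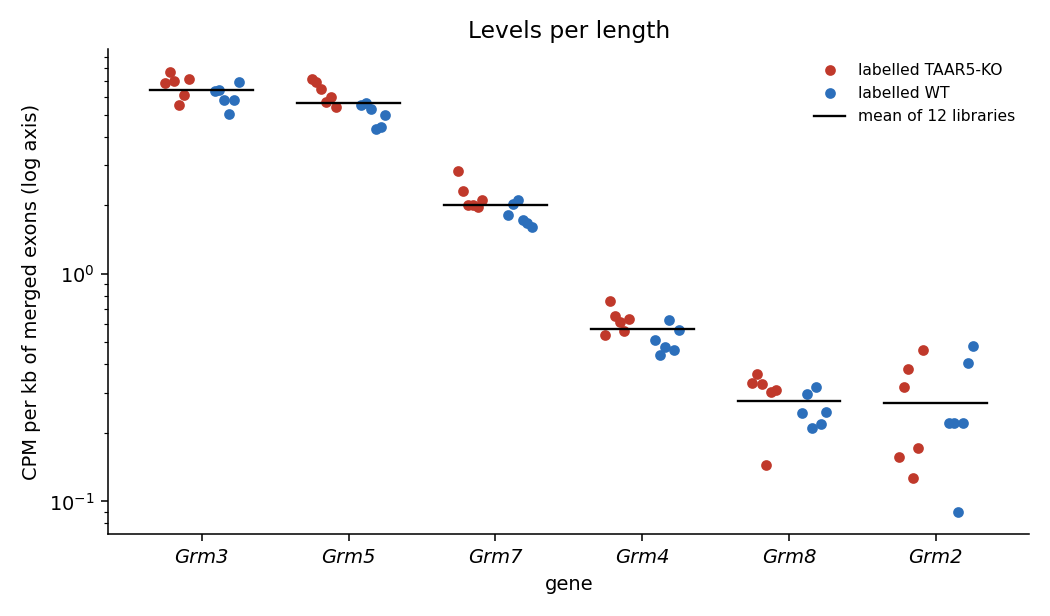
CPM per kb of merged exons (log y axis) of the 6 receptor genes in order of their mean, with points for the 12 libraries by labelled genotype and lines for the mean of all 12. Grm3 and Grm5 overlap at the top (6.40 and 5.66), and Grm8 and Grm2 at the bottom (0.276 and 0.272).

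Each receptor was set against the summed level of 7 lists of cell type markers. Of the 42 relations, 10 passed by Pearson's r, 3 of them with the astrocyte sum, and 11 passed by Spearman's rho. Across the 12 libraries, Grm2 followed the markers of cortical pyramidal neurons. These 10 genes (among them Slc17a7 and Neurod6) summed to 103 ± 36.7 CPM in the libraries labelled TAAR5-KO and 104 ± 36.6 in those labelled WT (SD, n = 6 each; two-sided exact permutation test, p = 0.987). The sum was lowest in NK4 (58.6 CPM), NK9 (61.2) and NK5 (67.5), which with NK1 had the lowest Grm2. It was highest in NK12 (155), NK3 (142), NK6 (139) and NK11 (137), the 4 libraries of highest Grm2. On log2 CPM, Pearson's r was 0.93 and Spearman's rho 0.90 (permutation test, p = 5.0e-05 and 0.00023, adjusted over 42 relations 0.0021 and 0.0097, n = 12). It was 0.91 without NK4 and NK9, the libraries farthest from the median, and 0.94 and 0.93 within the libraries labelled TAAR5-KO and WT. Per 100 CPM of these markers Grm2 stood at 1.23 ± 0.257 and 1.24 ± 0.316 CPM (SD, n = 6 each). The part of remaining cortical tissue in the Grm2 level was not tested. Grm3 had a weaker relation to the same sum, with r = 0.67 and rho = 0.69 (permutation test, p = 0.0192 and 0.0167, adjusted 0.0871 and 0.0703, n = 12) and r = 0.55 without NK4 and NK9. Within the groups it was 0.89 in the libraries labelled TAAR5-KO and 0.59 in those labelled WT.

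The difference in astrocyte markers had the opposite sign to those of Grm3 and Grm5. All 8 of them, among them the gap junction gene Gja1 and the water channel Aqp4, had log2 fold changes below 0 with a median of -0.27, and only Gja1 passed (-0.41, likelihood ratio test of edgeR, adjusted p = 0.0566; quasi-likelihood test, 0.144). Their sum was 148 ± 25.5 CPM in the libraries labelled TAAR5-KO, from 122 to 175, and 185 ± 16.1 in those labelled WT, from 165 to 207 (two-sided exact permutation test, p = 0.0173, adjusted over 7 marker lists 0.0606). None of the markers was at 0 in all libraries. By Pearson's r, the relations of Grm5, Grm7 and Grm4 with this sum passed over all 12 libraries, each with r below 0. By Spearman's rho, those of Grm7, Grm4 and Grm8 passed (permutation test, adjusted over 42 relations 0.0703, 0.0703 and 0.0601). That of Grm5 did not pass by rho (adjusted 0.159). NK1, NK2 and NK3 stood apart at 122 to 128 CPM, with 162 or more in the other 9. For this reason no value of r over all 12 is given. These 3 libraries had the highest Grm5 of all. Among the other 9, r between Grm5 and the astrocyte sum was -0.23 and rho -0.07 (permutation test, p = 0.550 and 0.879, adjusted over the 6 receptors 0.682 and 0.912). Grm7 had r = -0.65 and rho = -0.63 among these 9 (permutation test, p = 0.0637 and 0.0759, adjusted 0.318 and 0.288), and Grm4 had r = -0.57 and rho = -0.60 (permutation test, p = 0.106 and 0.0958, adjusted 0.318 and 0.288). Grm8 had r = -0.23 and rho = -0.48 (permutation test, p = 0.568 and 0.195, adjusted 0.682 and 0.390). For Grm3, whose receptor astrocytes express, r was 0.15 and rho 0.05 (permutation test, p = 0.703 and 0.912, adjusted 0.703 and 0.912). Per 100 CPM of astrocyte markers Grm3 stood at 14.5 ± 3.86 CPM in the libraries labelled TAAR5-KO and 9.97 ± 0.899 in those labelled WT (SD, n = 6 each), and 4 of the first group lay above the highest of the second. The ratio was highest in NK1, NK2 and NK3 (16.3, 19.4 and 17.3), whose astrocyte sums were lowest, followed by NK6 (13.6). NK4 and NK5 (9.59 and 10.7) lay inside the range of the libraries labelled WT, 8.50 to 10.9. The part of astrocyte content in the differences of Grm3 and Grm5 was not tested.

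**Figure D5:**
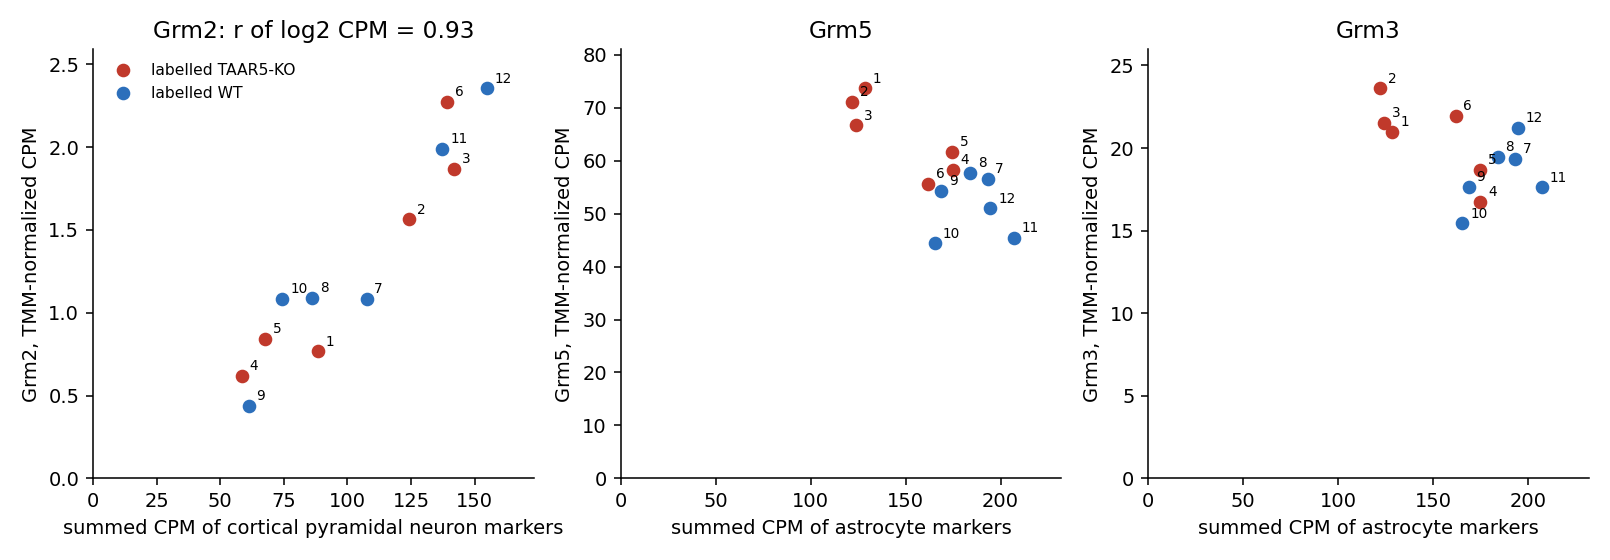
Grm2 against the summed CPM of 10 cortical pyramidal neuron markers, and Grm5 and Grm3 against the summed CPM of 8 astrocyte markers (TMM-normalized CPM on linear axes from 0, points numbered NK1 to NK12, colours for the labelled genotype). Grm2 climbs with the cortical sum in both groups (r = 0.93 on log2 CPM), and NK1, NK2 and NK3 sit apart at low astrocyte sums.

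Grm5 was also compared with the markers of the spiny neurons that express it. D1 spiny neuron markers summed to 40.5 ± 5.74 CPM in the libraries labelled TAAR5-KO and 33.0 ± 7.001 in those labelled WT (SD, n = 6 each; two-sided exact permutation test, p = 0.0628, adjusted 0.110). For D2 spiny neuron markers the sums were 115 ± 9.43 and 99.4 ± 17.7 CPM (p = 0.0346 by the same exact test, adjusted 0.0808). Most of the D2 sum was Penk, at 85.7 ± 7.22 and 72.4 ± 14.0 CPM (SD, n = 6 each). Values below that use the D2 sum therefore weigh Penk more than its other markers. None of these 12 markers passed the test across features, and 10 had log2 fold changes above 0. Per 100 CPM of both lists together, Grm5 stood at 41.5 ± 4.52 CPM in the libraries labelled TAAR5-KO and 40.0 ± 7.80 in those labelled WT (SD, n = 6 each). The libraries of the first group lay inside the range of the second, whose highest value, 54.2, was that of NK11. Without NK11 those labelled WT stood at 37.2 ± 3.99 CPM (SD, n = 5) with a highest value of 40.1, and 4 of the 6 labelled TAAR5-KO lay above it. Grm5 correlated with the D1 sum at r = 0.64 and rho = 0.67 (permutation test, p = 0.0191 and 0.0201, adjusted 0.0871 and 0.0767, n = 12). Without NK1 and NK11, r was 0.30, so this relation rests on those libraries. For the D2 sum it was r = 0.63 and rho = 0.69 (permutation test, p = 0.0162 and 0.0167, adjusted 0.0871 and 0.0703, n = 12), and r was 0.41 without NK1 and NK11.

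Grm5 and Grm7 varied together by Pearson's r, but their rank correlation did not pass. Their r was 0.82 and rho 0.66 (permutation test, p = 0.00088 and 0.0234, adjusted over 15 pairs of members 0.0132 and 0.250, n = 12). It was 0.74 without the 2 libraries farthest from the median of Grm5, and 0.71 and 0.64 within the libraries labelled TAAR5-KO and WT. None of the other 14 pairs passed by either measure. The features most like each member across the 12 libraries, by Pearson's r of log2 CPM and as a description, were Lrrc7 (0.97), Gm36989 (0.96) and Son (0.96) for Grm5, and Cck (0.95), Dkk3 (0.95) and Nrgn (0.95) for Grm2. For Grm3 they were Mmd (0.94), Kcnq5 (0.94) and Ppm1a (0.93), and for Grm4 Atp8b2 (0.87), Eif2d (0.84) and Slain1os (0.84). Those of Grm7 were Zfp292 (0.97), Fnbp4 (0.96) and Cspp1 (0.96), and those of Grm8 were Ssx2ip (0.95), Dnaja2 (0.89) and Ccdc186 (0.88). Of these 18 features only Gm36989 passed the test between the groups, with a log2 fold change of 0.91 (likelihood ratio test of edgeR, adjusted p = 0.0255).

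The partners of the receptors were read from 5 lists with 55 genes, all tested. Of these, 20 had log2 fold changes above 0 and 35 below, with a median of -0.04, and 1 passed the likelihood ratio test of edgeR, which fell. It was Slc17a6, which encodes the vesicular glutamate transporter VGLUT2. Means were 3.25 ± 1.14 CPM in the libraries labelled TAAR5-KO and 6.25 ± 3.35 in those labelled WT (SD, n = 6 each). Slc17a6 had a log2 fold change of -0.93 (likelihood ratio test of edgeR, adjusted p = 0.0969; quasi-likelihood test, 0.232; DESeq2, 0.197). Its levels ran from 1.49 to 4.78 CPM and from 3.12 to 12.5 CPM in these groups, and without NK11 its log2 fold change was -0.57 with an adjusted p of 0.374 in the likelihood ratio test of edgeR. DESeq2 called 2 other genes of these lists, which are named after their values were seen. They were Rgs4, a regulator of G protein signalling (0.35, adjusted p = 0.0945), and the Gi subunit gene Gnai2 (-0.26, adjusted p = 0.0990). In edgeR their adjusted p was 0.152 and 0.133 by the likelihood ratio test and 0.216 and 0.201 by the quasi-likelihood test. The counts of genes that passed, list by list, are those of the likelihood ratio test.

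In the Gq, phospholipase C and calcium cascade that group I receptors drive, 0 of 12 genes passed, 6 were above 0 and 6 below. The most abundant was Itpr1, the calcium release channel of the endoplasmic reticulum, with a log2 fold change of 0.18 (likelihood ratio test of edgeR, adjusted p = 0.588). Of the Homer and Shank scaffold that ties group I receptors to the postsynaptic density, 0 of 12 passed, 4 were above 0 and 8 below. Shank1, the most abundant, had -0.26 with an adjusted p of 0.643 in the same test of edgeR. Among the Gi/o proteins and partners of groups II and III, 0 of 13 passed, 7 above 0 and 6 below, and Gnao1, the main neuronal Go subunit, had -0.04 (likelihood ratio test of edgeR, adjusted p = 0.922). In the list of glutamate and N-acetylaspartylglutamate supply and clearance, 1 of 12 passed, 3 were above 0 and 9 below. Its most abundant gene was the astrocytic glutamate transporter Slc1a2 at 941 ± 101 and 970 ± 60.1 CPM (SD, n = 6 each), with -0.04 (likelihood ratio test of edgeR, adjusted p = 0.930). All 6 receptor kinases and arrestins were below 0 and 0 passed, with -0.10 for Arrb1 (likelihood ratio test of edgeR, adjusted p = 0.712).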

How the data were processed

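Striatal RNA of 6 TAAR5-KO and 6 WT mice was analysed. The authors depleted ribosomal RNA, sequenced single-end reads of 100 bases, trimmed adapters (cutadapt 4.1), mapped to GRCm39 with STAR 2.7.11b, and assigned reads to GENCODE M35 genes with featureCounts 2.0.6. They deposited raw counts per gene, not normalized or pooled, with merged exon lengths. Strand setting and treatment of multimapping reads are not given in the sources used here. The columns NK1 to NK12 carry a genotype but no animal number. The table's other 12 library columns stayed out of every step.

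Features reaching a CPM of 0.5 in 3 or more libraries were scaled with TMM and compared with glmFit and glmLRT (edgeR 4.0.16, R 4.3.3). Calls needed an adjusted p (Benjamini–Hochberg) under 0.1. The edgeR quasi-likelihood test and DESeq2 1.42.0 were run beside it, and an adjusted p that DESeq2 left missing stayed missing. Standard errors and 95% intervals came from the edgeR fit and cover the model's error only. The test was checked on simulated data. Log2 CPM for correlations had a prior count of 2. Correlations used 100000 permutations, and marker sums an exact enumeration whose smallest p is 0.00216. Coding sequences from GENCODE M39 on GRCm39 were aligned with mafft 7.526, and merged exon lengths matched the deposited ones for all 57132 features.

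The members and lists were chosen with earlier results of these data known. Named were every member, Grm6, Taar5, the called and the most abundant gene of each partner list, and the 3 features most like each member. Genes of marker lists were named as examples after their values were seen. Alternatives were other tests, scalings, filters, thresholds, removal of trends on length and GC, ribosomal RNA handling, other lengths, and leaving out each library. The share of ribosomal RNA as a measure, the correlations among 9 libraries, the marker ratio without NK11 and the order and shares on longest transcripts were added after the data were seen. Some items covered by these rules are not reported here.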

Additional observations from a re-analysis of the deposited data

Results flagged for a closer look

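In 26 groups of 6 libraries (6 receptors and 7 marker lists by 2 labelled genotypes), 5 held a library whose distance to the nearest other, divided by the group's range, was above the critical value of 0.625. Chance alone flags about 1 group in 20 where values are normally distributed and groups independent. These groups share libraries, and NK11 recurs among the flagged, so that rate is only a rough guide. Grm8 was low in NK4 at 1.43 CPM, with 2.98 to 3.60 in the other libraries labelled TAAR5-KO. D1 spiny neuron markers were low in NK11 at 19.5 CPM, with 32.8 to 39.1 in the other libraries labelled WT. D2 spiny neuron markers were low in the same library at 64.2 CPM, with 98.5 to 110 in the others. Pituitary markers were high in NK11 at 56.0 CPM, with 0.376 to 17.2 in the other libraries labelled WT. They were also high in NK5 at 5.59 CPM, with 0.313 to 0.783 in the other libraries labelled TAAR5-KO.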

How the results depend on the processing

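Under scaling by library size alone, the log2 fold changes were -0.25 for Grm5, -0.42 for Grm3, -0.23 for Grm4, -0.23 for Grm7 and -0.31 for Grm8, reversed from those with TMM. Grm5 passed with DESeq2 (0.32) and Grm4 with the GC trend removed (0.42), so 1 member was called in each. Grm2 reversed with the ribosomal share as a covariate (0.17) and with the GC trend removed (0.048). The cause was not tested. In the other settings that kept all 12 libraries, the 6 members kept their direction and their side of the threshold. Leaving out each library gave 0.28 to 0.36 for Grm5, which passed in 3 of 12 fits, -0.34 to 0.18 for Grm2, which reversed in 5 of 12 fits, and 0 to 1 members called. Grm3, Grm4, Grm7 and Grm8 kept direction and side in all 12 fits. No paired analysis was possible because the columns carry no animal number.

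Of all features, 229 were called, and 63 with the quasi-likelihood test, 7 with library size only, 93 with no filter, 98 with the ribosomal share as a covariate, 87 with the GC trend removed, 108 at an adjusted p under 0.05, and 85 (without NK11) to 415 (without NK4) with a library left out. Of the 55 partner genes, 1 was called, and 2 others, Rgs4 and Gnai2, with DESeq2, 0 to 4 with a library left out, and 0 with the quasi-likelihood test, library size only, the ribosomal covariate, the GC trend removed or an adjusted p under 0.05. With the longest transcript as length, levels in CPM per kb were 6.80 for Grm5, 3.52 for Grm3, 0.717 for Grm4, 2.81 for Grm7, 0.569 for Grm8 and 0.192 for Grm2. For Grm3 and Grm2 that length exceeds the counted exons, which lowers their levels. With library size only the levels were 6.63 for Grm5, 7.80 for Grm3 and 0.677 for Grm4. The 10 relations with marker sums that passed were 12 with the sum of log2 marker levels. Grm2, with 4 to 104 counts per library, is limited most by depth.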

Other observations

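The share of counts on ribosomal RNA features, a measure chosen after the data were seen, was compared with each receptor over the 12 libraries. None of the 6 relations passed. The largest was that of Grm7, with r = 0.55 and rho = 0.54 (permutation test, p = 0.0652 and 0.0740, adjusted over 48 relations 0.235 and 0.222, n = 12), and without NK7 and NK12 r was 0.33. For Grm5 r was 0.33 and rho 0.38 (permutation test, p = 0.296 and 0.228, adjusted 0.508 and 0.456, n = 12), and it was 0.81 within the libraries labelled TAAR5-KO and -0.28 within those labelled WT.

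Oligodendrocyte precursor markers summed to 13.5 ± 1.83 CPM in the libraries labelled TAAR5-KO and 16.1 ± 0.937 in those labelled WT (SD, n = 6 each; two-sided exact permutation test, p = 0.0130, adjusted over 7 lists 0.0606). All 6 had log2 fold changes below 0 and 0 passed the test across features. Grm4 ran opposite to this sum, with r = -0.69 and rho = -0.79 (permutation test, p = 0.0109 and 0.00335, adjusted over 42 relations 0.0871 and 0.0601, n = 12). Without NK3 and NK6 r was -0.76, and it was -0.37 and -0.76 within the libraries labelled TAAR5-KO and WT. Interneuron markers summed to 35.4 ± 2.41 and 36.5 ± 2.07 CPM (two-sided exact permutation test, p = 0.437, n = 6 each), and 0 of their relations with the receptors passed. Of the 5 pituitary markers 3 were tested, and only Gh passed (log2 fold change -3.59, likelihood ratio test of edgeR, adjusted p = 0.0662, quasi-likelihood test, 0.180). Gh stood at 0.123 ± 0.197 CPM in the libraries labelled TAAR5-KO and 1.62 ± 2.28 in those labelled WT (SD, n = 6 each). In the first group 3 counts equal 0.0783 (NK6) to 0.243 CPM (NK3), so Gh was near the floor there. Prl had -3.69 and Tshb -0.03 (likelihood ratio test of edgeR, adjusted p = 0.129 and 0.986). The pituitary markers summed to 0.313 to 5.59 CPM in the libraries labelled TAAR5-KO and 0.376 to 56.0 in those labelled WT. Grm5 ran opposite to that sum, with r = -0.76 and rho = -0.72 (permutation test, p = 0.00441 and 0.0107, adjusted over 42 relations 0.0574 and 0.0703, n = 12). Without NK10 and NK11 r was -0.49, and it was -0.35 and -0.93 within the libraries labelled TAAR5-KO and WT. For Grm7 r was -0.66 and rho -0.59 (permutation test, p = 0.0192 and 0.0492, adjusted 0.0871 and 0.159, n = 12), and r was -0.51 without the same 2 libraries and -0.33 and -0.75 within the groups.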
